A study of Rattus norvegicus with 7 samples.

Results

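The G1 control genes examined here were the D-type cyclins Ccnd1, Ccnd2 and Ccnd3, their partner kinase gene Cdk4, the E-type cyclins Ccne1 and Ccne2, the inhibitors Cdkn1b and Cdkn2c, the transcription factor gene E2f1 and the retinoblastoma gene Rb1. Every probe set whose annotated gene symbol was one of these names was taken, which gave 15 probe sets of 10 genes among 20832 probe sets of 14218 genes with a single symbol. Of these, 12 probe sets, at least 1 for each of the 10 genes, were bright enough to be tested, against 9476 probe sets of 7653 genes in all. The question put to the data was whether the G1 control genes had changed before the genes of DNA replication and mitosis fell.

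The cells were ROE2, an immortalized rat oral epithelial line made from the tongue of an 18-day-old fetus of a transgenic Wistar rat that carries the temperature-sensitive SV40 large T antigen. All cells shared that transgene, were grown at 33 °C with epidermal growth factor, and were moved for 24 h to 37 °C, in medium with 2% fetal bovine serum, before treatment. Sodium fluoride (NaF) at 2 mM, or sterile water at 1% as the vehicle, was then given for 3, 6 or 12 h, and an additional vehicle control is taken as 0 h from the study's methods, since its label gives no hour. Each of the 7 groups (4 vehicle, 3 NaF) was 1 array, hybridized with RNA pooled from 3 independent experiments, so the arrays carry no spread between experiments. Large T antigen is known to bind the retinoblastoma protein family, and the temperature-sensitive form loses function as the temperature rises, so G1 control in this line need not equal that of a normal epithelium.

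In a cycling cell, growth signals raise D-type cyclins, which with CDK4 phosphorylate the retinoblastoma protein. The phosphorylated protein releases E2F factors, which switch on cyclin E and the genes of DNA replication, and cyclin E with CDK2 then drives entry into S phase. Inhibitors of the INK4 family, such as the Cdkn2c product p18, block CDK4, and p27, the product of Cdkn1b, blocks mainly cyclin E and CDK2.

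Values are log2 signals as deposited, and levels are compared only between arrays for the same probe set. A change is the NaF array minus the mean of the 4 vehicle arrays, tested in a limma fit over all tested probe sets. A gene was called when its Benjamini-Hochberg adjusted p was under 0.05, at the tested probe set of the gene with the highest mean signal. The lone NaF array is assumed to vary like the vehicle arrays, so these p-values measure the spread between vehicle pools of different times. All 3 NaF times were set against the same vehicle arrays, so their calls are not independent of each other. In extracts of whole cultures, fewer cells in a cycle phase and less RNA per cell cannot be told apart.

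The arrays had closely similar scales, with medians between 5.32 and 5.35. Of 22 epithelial markers 18 were tested, led by Krt14, a basal keratin, at 14.11, while 1 gene each was bright enough among 12 mesenchymal (Vim), 10 leukocyte (Cd14), 9 endothelial (Egfl7) and 9 skeletal muscle (Myh1) markers. Defining markers of other cell types such as Col1a1, Ptprc, Pecam1 and Myod1 were too dim to be tested. The mean level of the epithelial list lay between 10.42 and 10.44 in the vehicle arrays and between 10.12 and 10.42 in the NaF arrays. For the mesenchymal list, in which only Vim, a filament gene that many cultured epithelial lines express, was tested, the mean was 4.33 to 4.41 with vehicle and 4.21 to 4.37 with NaF. The means of the leukocyte list (4.84 to 5.01 with vehicle, 4.85 to 4.94 with NaF), the endothelial list (3.65 to 3.84 and 3.69 to 3.70) and the skeletal muscle list (4.87 to 5.05 and 4.88 to 5.06) stayed low throughout. Their tested genes were brighter, with vehicle means of 10.06 for Cd14, 7.28 for Egfl7 and 9.67 for Myh1. Cd14 was called lower at 3, 6 and 12 h (−0.74, −1.28 and −0.70) and Myh1 higher at 6 and 12 h (0.78 and 0.50). Vim (vehicle mean 11.35) and Egfl7 were called lower only at 12 h (−1.19 and −0.27). The gap between the 3′ and 5′ actin control probe sets, a sign of RNA integrity, was 1.53 to 2.83 over the vehicle arrays, widest at vehicle 3 h, and 1.77 to 2.39 over the NaF arrays. Gapdh, a housekeeping gene, differed by 0.05, 0.11 and 0.04 at 3, 6 and 12 h (SE 0.06) and was not called at any time.

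At 3 h of NaF only the E-type cyclins among the G1 control genes were called, both lower, by 0.48 for Ccne1 and 0.54 for Ccne2 on the log2 scale. At 6 h Ccnd1, Cdkn1b and Cdkn2c were lower as well and Rb1 was higher. At 12 h each of the 10 genes except Cdk4 was lower. Both 3 h calls were lost when some of the vehicle arrays were left out singly, as given with the values of each gene. Whichever vehicle array was left out, the 3 h change lay between −0.46 and −0.49 for Ccne1 and between −0.52 and −0.58 for Ccne2.

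**Figure D1:**
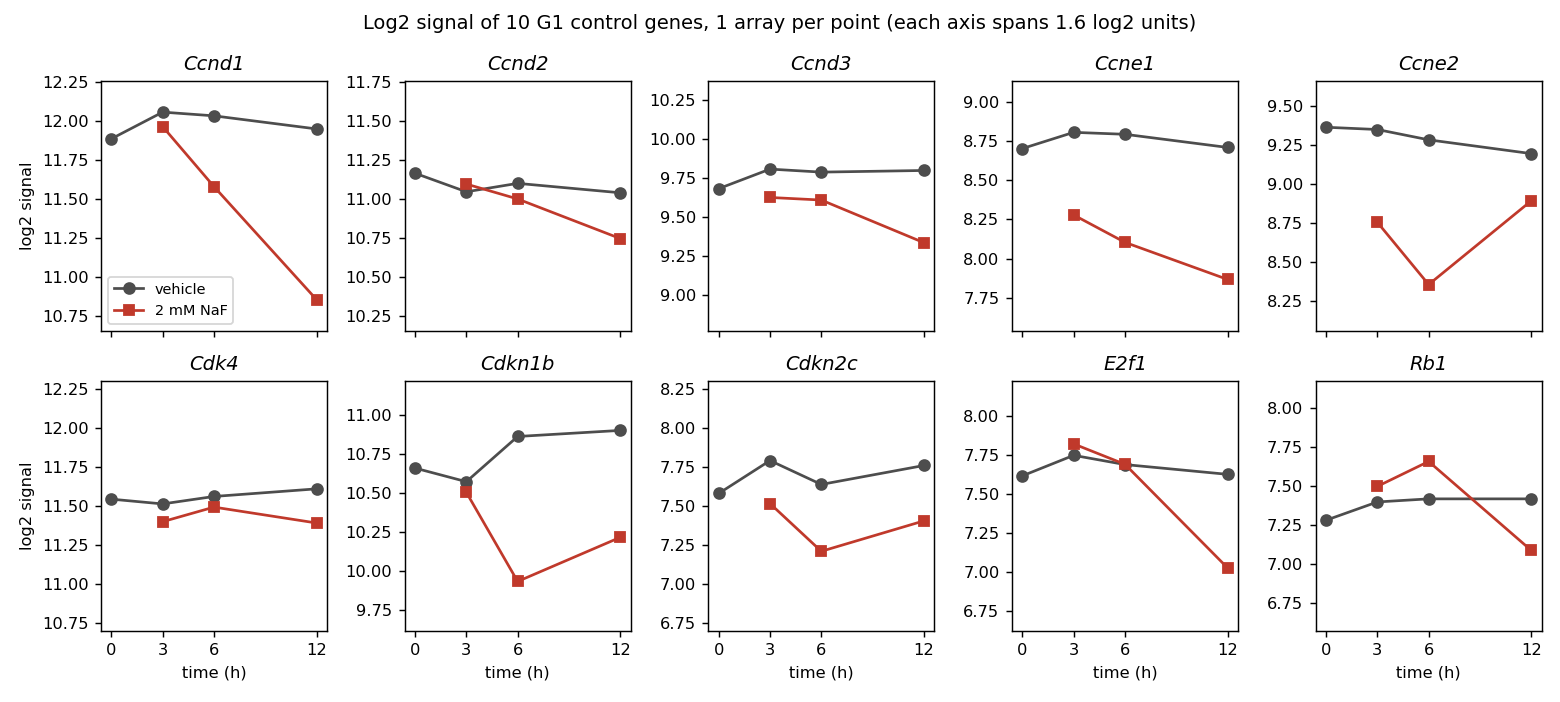
Log2 signal (vertical axes) of the brightest tested probe set of each of the 10 genes against hours of treatment, for the 4 vehicle arrays and the 3 NaF arrays, 1 array per point, with the vehicle control drawn at 0 h. Ccne1, Ccne2, Ccnd3, Cdk4, Cdkn1b and Cdkn2c lie below all vehicle arrays from 3 h. E2f1 drops only at 12 h, to 7.03.

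The promoters of 6 of the 10 genes could be read from RefSeq (GRCr8). Those of Ccnd1, Ccnd2, Ccne2 and E2f1 were not found there and were not searched. For Ccnd3 and Cdkn2c the 250 bases searched lay wholly inside the annotated gene. A stretch is shown for one gene of each kind: Ccne1, called lower from 3 h, Rb1, called higher at 6 h, and Cdk4, called at no time. Only bases upstream of the annotated gene are printed, 5′ to 3′ on the strand of the gene. Capitals mark GC boxes (GGGCGG or its reverse complement CCGCCC) and E boxes (CACGTG, the same on both strands).
Ccne1, 173 bases at chr1:99927987-99928159, minus strand: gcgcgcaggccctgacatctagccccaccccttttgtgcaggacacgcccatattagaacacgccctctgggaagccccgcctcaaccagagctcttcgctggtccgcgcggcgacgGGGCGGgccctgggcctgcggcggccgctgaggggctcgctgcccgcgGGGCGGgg
Rb1, 118 bases at chr15:54911990-54912107, minus strand: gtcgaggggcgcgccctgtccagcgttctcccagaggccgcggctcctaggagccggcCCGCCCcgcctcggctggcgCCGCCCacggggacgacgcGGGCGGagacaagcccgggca
Cdk4, 250 bases at chr7:64771203-64771452, plus strand: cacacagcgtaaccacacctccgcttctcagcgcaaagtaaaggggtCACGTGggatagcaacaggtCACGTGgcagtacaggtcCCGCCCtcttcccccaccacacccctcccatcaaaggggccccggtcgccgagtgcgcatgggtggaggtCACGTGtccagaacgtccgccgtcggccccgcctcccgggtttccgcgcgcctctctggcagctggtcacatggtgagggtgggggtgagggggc
The stretches hold 2 GC boxes for Ccne1, 3 for Rb1 and 1 for Cdk4, and that of Cdk4 also holds 3 E boxes. Over the whole 250 bases before the start, all 6 promoters held a GC box, against 30.5% of 33469 promoters in the table. The related lists were also above that share, with 72.0% for other G1/S regulators, 62.2% for DNA replication and 61.5% for mitosis. Of the 6, only the Cdk4 promoter held an E box, against 5.59% of all. In those lists, in the same order, the E box share was 4.0%, 10.8% and 5.13%. The E2F letters TTTCCCGC, TTTCGCGC, TTTGCCGC or TTTGGCGC, searched on both strands, were found in 0 of the 6 promoters and in 1.73% of all, but in 10 of 37 promoters of the DNA replication genes (27.0%), 3 of 25 of other G1/S regulators (12.0%) and 2 of 39 of the mitosis genes (5.13%). The GC and E boxes were chosen for the search after the expression values were seen, and a match or its absence in such a window says nothing about binding.

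Among the D-type cyclins, Ccnd1 had the largest fall, and it was first called at 6 h. Its brightest probe set (1371643_at) read 11.88, 12.05, 12.03 and 11.95 in the vehicle control and at vehicle 3, 6 and 12 h, and 11.96, 11.58 and 10.85 at NaF 3, 6 and 12 h. The 3 h NaF value lay among the vehicle values, and those of 6 and 12 h lay below all of them. The change was −0.02 at 3 h (SE 0.08, adjusted p 0.93, 95% interval −0.23 to 0.19), −0.40 at 6 h (adjusted p 0.015) and −1.13 at 12 h (adjusted p 0.00032, limma). At 12 h the signal was 46.8% of vehicle 12 h, the only same-time difference of the 10 genes past 2-fold at any time. From 6 to 12 h of NaF it fell by a further 0.72 on the log2 scale (adjusted p 0.0058). The other tested probe sets of Ccnd1, 1383075_at and 1371150_at, gave the same calls, with same-time differences of −0.52 and −0.42 at 6 h and −0.79 and −0.93 at 12 h.

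**Figure D2:**
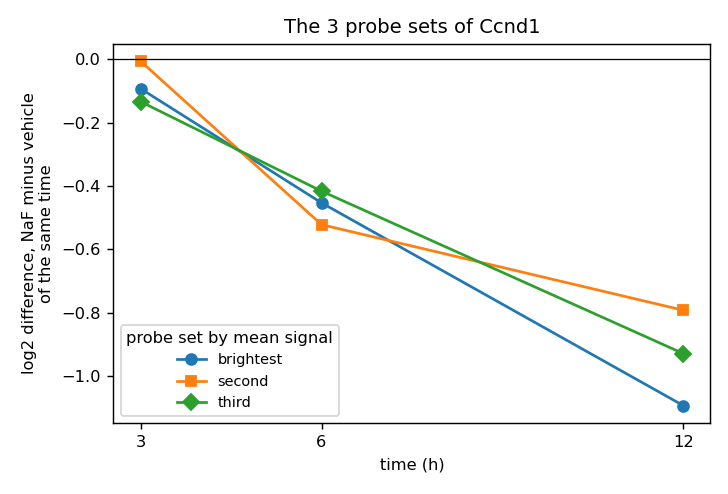
Log2 difference between the NaF array and the vehicle array of the same time (vertical axis) at 3, 6 and 12 h, for the 3 Ccnd1 probe sets ordered by mean signal, 1 pair of arrays per point. All 3 probe sets lie below 0 at 6 and 12 h, and the brightest reaches −1.09 at 12 h.

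Ccnd2 and Ccnd3, which share the CDK4 partner with Ccnd1, were called only at 12 h. Ccnd2 (1370810_at) read 11.17, 11.05, 11.10 and 11.04 in the vehicle control and at 3, 6 and 12 h of vehicle, and 11.10, 11.00 and 10.75 with NaF. Its change was 0.01 at 3 h, −0.09 at 6 h (adjusted p 0.39, 95% interval −0.27 to 0.09) and −0.34 at 12 h (SE 0.07, adjusted p 0.0093, limma), and the 12 h level was 81.6% of vehicle 12 h. Ccnd3 (1369935_at) read 9.68, 9.81, 9.79 and 9.80 with vehicle in the same order, and 9.62, 9.61 and 9.33 with NaF. All NaF values of Ccnd3 lay below the vehicle range, by little at 3 and 6 h, where its lowest vehicle value was that of the vehicle control. Its changes of −0.14 at 3 h (adjusted p 0.30) and −0.16 at 6 h (adjusted p 0.14) missed the threshold, and it fell by 0.43 on the log2 scale at 12 h (SE 0.07, adjusted p 0.004, limma). Without the vehicle control, the 6 h change of Ccnd3 was called (adjusted p 0.045).

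Cdk4, the kinase that the D-type cyclins activate, was the one gene of the 10 that was called at no time in the limma fit. Its probe set (1369950_at) read 11.54, 11.51, 11.56 and 11.61 with vehicle and 11.40, 11.49 and 11.39 with NaF. Every NaF value lay below the vehicle range, that of 6 h by the least. The change was −0.16 at 3 h (95% interval −0.32 to 0.00), −0.06 at 6 h (−0.22 to 0.10) and −0.17 at 12 h (−0.33 to −0.01), with adjusted p of 0.21, 0.48 and 0.07 (limma). At 12 h the signal was 85.9% of vehicle 12 h. The 12 h change was called without vehicle 3 h (adjusted p 0.049) and with a variance trend in the fit (adjusted p 0.023).

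The E-type cyclins, the partners of CDK2 at entry into S phase, were lower at every NaF time. Ccne1 (1373530_at) read 8.70, 8.81, 8.80 and 8.71 with vehicle and 8.28, 8.10 and 7.87 with NaF. Each NaF array lay below all vehicle arrays and each later one below the one before. The signal was 69.3%, 61.9% and 55.6% of the vehicle array of the same time at 3, 6 and 12 h. Against the vehicle mean the changes were −0.48, −0.65 and −0.89 (SE 0.07, adjusted p 0.018, 0.0019 and 0.00037, limma). The 3 h call was lost without vehicle 6 h (adjusted p 0.082) or vehicle 12 h (adjusted p 0.057).

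Ccne2 took another course. Its tested probe set (1374359_at) read 9.36, 9.35, 9.28 and 9.19 with vehicle and 8.75, 8.35 and 8.89 with NaF. The lowest level was that of 6 h, at 52.6% of vehicle 6 h, with 66.2% at 3 h and 81.1% at 12 h. The changes were −0.54, −0.94 and −0.41 (SE 0.08, adjusted p 0.02, 0.0011 and 0.0083, limma). From 6 to 12 h it rose by 0.54 (adjusted p 0.012), while remaining below every vehicle array. The 3 h call was lost without vehicle 3 h (adjusted p 0.051) or vehicle 6 h (adjusted p 0.087). Another Ccne2 probe set (1391681_at) was dim, at a vehicle mean of 4.73, was not tested, and had all its NaF values within its vehicle range.

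Both inhibitor genes were lower at 6 and 12 h, with their lowest level at 6 h. Cdkn1b (1373812_at) read 10.66, 10.57, 10.86 and 10.90 in the vehicle control and at vehicle 3, 6 and 12 h, and 10.50, 9.93 and 10.22 with NaF. The vehicle arrays themselves spread over 0.33, with the later times higher, and every NaF array was below them. The signal was 95.4% of the same-time vehicle at 3 h, 52.5% at 6 h and 62.2% at 12 h. The changes were −0.24 (adjusted p 0.35), −0.82 (adjusted p 0.0076) and −0.53 (adjusted p 0.019, SE 0.14, limma). Without vehicle 6 h the 12 h call was lost, at an adjusted p of 0.050 that lay just past the threshold before rounding. The dim Cdkn1b probe set 1369192_at was not tested and differed from the same-time vehicle by −0.08, −0.40 and −0.13.

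Cdkn2c (1370054_at) read 7.58, 7.79, 7.64 and 7.76 with vehicle and 7.52, 7.21 and 7.40 with NaF. The NaF arrays lay below the vehicle arrays, at 3 h by less than the vehicle arrays differed among themselves. Its changes were −0.18 (adjusted p 0.34), −0.48 (adjusted p 0.013) and −0.29 (adjusted p 0.047, SE 0.10, limma). The 12 h call was lost without vehicle 3 h, 6 h or 12 h (adjusted p 0.072, 0.081 and 0.097). That call was also lost with a variance trend in the fit, with equal array medians and without the signal filter. The other Cdkn2c probe set, 1378711_x_at, whose suffix marks probes shared with other transcripts, was dim and untested. It differed from same-time vehicle by 0.29, 0.00 and 0.03.

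Other inhibitor genes took several courses. Cdkn2d, which encodes the INK4 inhibitor p19, differed by −0.70, −1.38 and −0.66 at 3, 6 and 12 h and was called at 6 and 12 h. It was bright enough to be tested (at least 7.14) only through vehicle arrays, which favours a lower call. Cdkn2d read 7.18 to 7.57 with vehicle and 6.01 to 6.73 with NaF. Cdkn1a and Cdkn2a were named after their values were seen. Cdkn1a, the p21 gene, was not called at any time, at −0.10, 0.17 and −0.06. Cdkn2a, the INK4A and ARF locus, was called only at 12 h, at −0.33. Cdkn2b and Cdkn1c were too dim to be tested.

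E2f1 and Rb1 were not called lower at 3 or 6 h. E2f1 (1382511_at), an activator of S-phase genes, read 7.62, 7.75, 7.69 and 7.63 with vehicle and 7.82, 7.69 and 7.03 with NaF. The 3 h NaF array was the highest of the 7, the 6 h array lay within the vehicle range, and the 12 h array was the lowest. The changes were 0.15 at 3 h (adjusted p 0.28, 95% interval −0.03 to 0.34), 0.02 at 6 h (adjusted p 0.86, −0.16 to 0.21) and −0.64 at 12 h (SE 0.07, adjusted p 0.001, limma). Thus a fall of E2f1 at 3 or 6 h as large as that of 12 h lay outside these intervals. From 6 to 12 h the change was −0.66 (adjusted p 0.0053), and at 12 h the signal was 66.0% of vehicle 12 h.

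Rb1 (1388185_at), the brake that D-type cyclin kinases release, read 7.28, 7.40, 7.42 and 7.42 with vehicle and 7.50, 7.66 and 7.09 with NaF. The 3 h and 6 h NaF arrays lay above all vehicle arrays and the 12 h array below them. The changes were 0.12 (adjusted p 0.41), 0.28 (adjusted p 0.035) and −0.29 (adjusted p 0.02, SE 0.08, limma), with a fall from 6 to 12 h of −0.57 (adjusted p 0.0083). It was the only one of the 10 genes called higher at any time. That call, at 6 h, was lost with a variance trend in the fit and without the signal filter. The 6 h call was lost without vehicle 3 h, 6 h or 12 h (adjusted p 0.06, 0.078 and 0.066), and the 12 h call without vehicle 6 h (adjusted p 0.058).

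**Figure D3:**
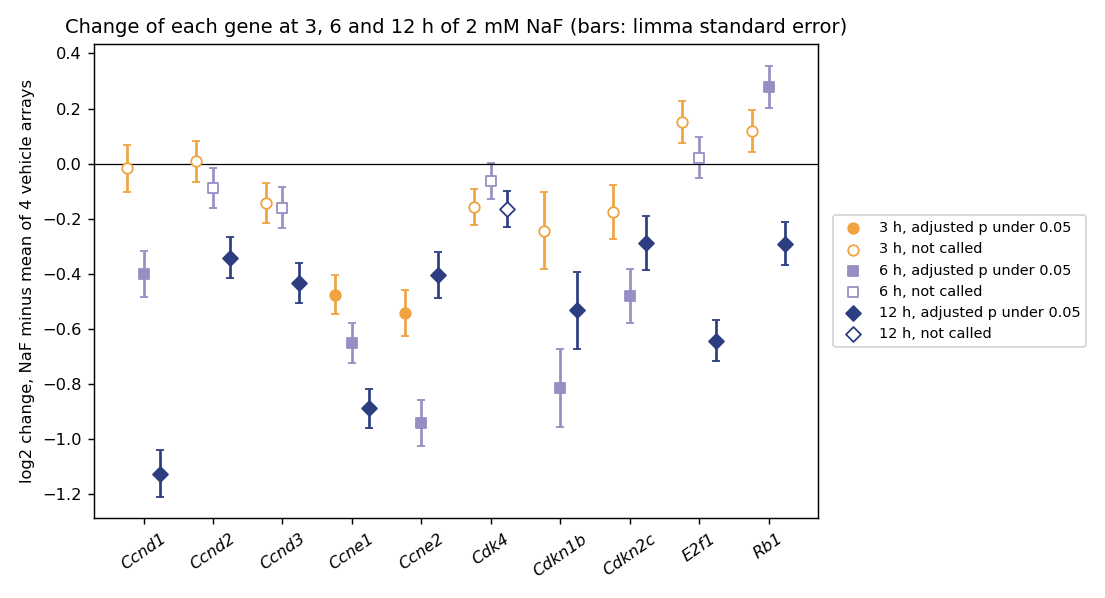
Log2 change (NaF array minus the mean of the 4 vehicle arrays) of each of the 10 genes at 3, 6 and 12 h, with bars of 1 SE from the limma fit, filled where the adjusted p was under 0.05. The largest fall was that of Ccnd1 at 12 h, −1.13, and Rb1 at 6 h, 0.28, is the only filled point above 0.

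The calls of the 10 genes are set here beside those of all tested genes. At 3 h, 2 of the 10 genes were called lower and 0 higher, against 6.42% and 2.68% of all tested genes. At 6 h, 5 were lower and 1 higher, against 22.4% and 17.0%. At 12 h, 9 were lower and 0 higher, against 32.0% and 30.0%. The median change of the 10 genes was −0.15, −0.28 and −0.42 at the 3 times, and that of all tested genes was −0.01, 0.00 and −0.01. The number of the 10 genes whose NaF array lay below every vehicle array was 6, 8 and 10, against 33.0%, 39.4% and 43.3% of all tested genes. At 12 h 13 of the 18 tested epithelial markers were called lower too, with a median change of −0.39, and their part in these counts was not tested.

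Consecutive NaF times were also compared with each other. From 3 to 6 h, 0 of the 10 genes were called with limma, against 4.05% of all genes lower and 2.56% higher. Ccnd1, Ccne2 and Cdkn1b had an unadjusted p under 0.05, and with a variance trend in the fit 1 gene was called. From 6 to 12 h, Ccnd1, E2f1 and Rb1 were called lower and Ccne2 higher, against 20.4% lower and 22.2% higher of all genes, so that the share called was near that of all genes. When the 3 NaF arrays were taken as 1 group against the 4 vehicle arrays, Ccne1 (−0.67, SE 0.11, adjusted p 0.019) and Ccne2 (−0.63, SE 0.13, adjusted p 0.034) were called lower and 0 of the 10 genes higher, against 4.66% and 4.26% of all genes. That count of 2 became 0 without any 1 of the 4 vehicle arrays, 0 without NaF 6 h, 0 with time as a block and 5 without NaF 3 h.

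The timing was then set beside other genes of the same pathway and the genes downstream of it. At 3 h the other G1/S regulators had 4 of 27 tested genes lower, Myc, Ccna2, Lin37 and Cks1b, and 0 higher, with a median of −0.13. The DNA replication list had 2 of 41 lower, Fen1 and Gmnn, with a median of −0.06. The mitosis list had 4 of 43 lower, Aurka, Espl1, Plk1 and Incenp, with a median of −0.26. With 6.42% of all tested genes called lower at 3 h, the replication count lay below that share and the mitosis count near it, so neither is a result about its list at that time. That holds for the calls only. By position alone, the 3 h NaF array lay below every vehicle array for 31 of 43 mitosis genes and above all for 1. For replication these numbers were 16 and 11 of 41, and for the G1 genes 6 and 2 of 10. Over all tested genes the shares were 33.0% and 28.6%. Whether the G1 genes moved before these lists was not tested. The counts of calls at 3 h depended on the vehicle arrays. Without vehicle 6 h these counts were 0 for the 10 G1 genes, 2 for the other regulators, 0 for replication and 0 for mitosis, and without vehicle 12 h they were 1, 3, 0 and 1. Without vehicle 3 h, mitosis had 0 and both the 10 G1 genes and replication 1, and without the vehicle control replication had 1.

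At 6 h the mitosis genes were lower nearly throughout, with 36 of 43 called and a median of −0.67, when 5 of the 10 G1 genes were lower. The replication list was then mixed, with 18 of 41 lower, 5 higher and a median of −0.18, as were the other regulators, with 13 of 27 lower, 2 higher and a median of −0.20. Over all tested genes 22.4% were lower and 17.0% higher at that time. Without vehicle 6 h or vehicle 12 h, 10 replication genes were lower at 6 h. Without vehicle 6 h, 8 of the other regulators were lower, while 1 of them was higher without the vehicle control or vehicle 6 h. The mitosis genes lower at 6 h numbered 26 without vehicle 6 h, 31 without vehicle 3 h, 34 without the vehicle control and 35 without vehicle 12 h. At 12 h, 39 mitosis genes and 27 replication genes were lower, with medians of −0.76 and −0.45, and 4 replication genes were higher. The other regulators then had 11 lower and 8 higher, with a median of −0.14, both counts near the shares of all tested genes (32.0% lower and 30.0% higher). The difference between these lists and the 10 G1 genes was not tested.

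**Figure D4:**
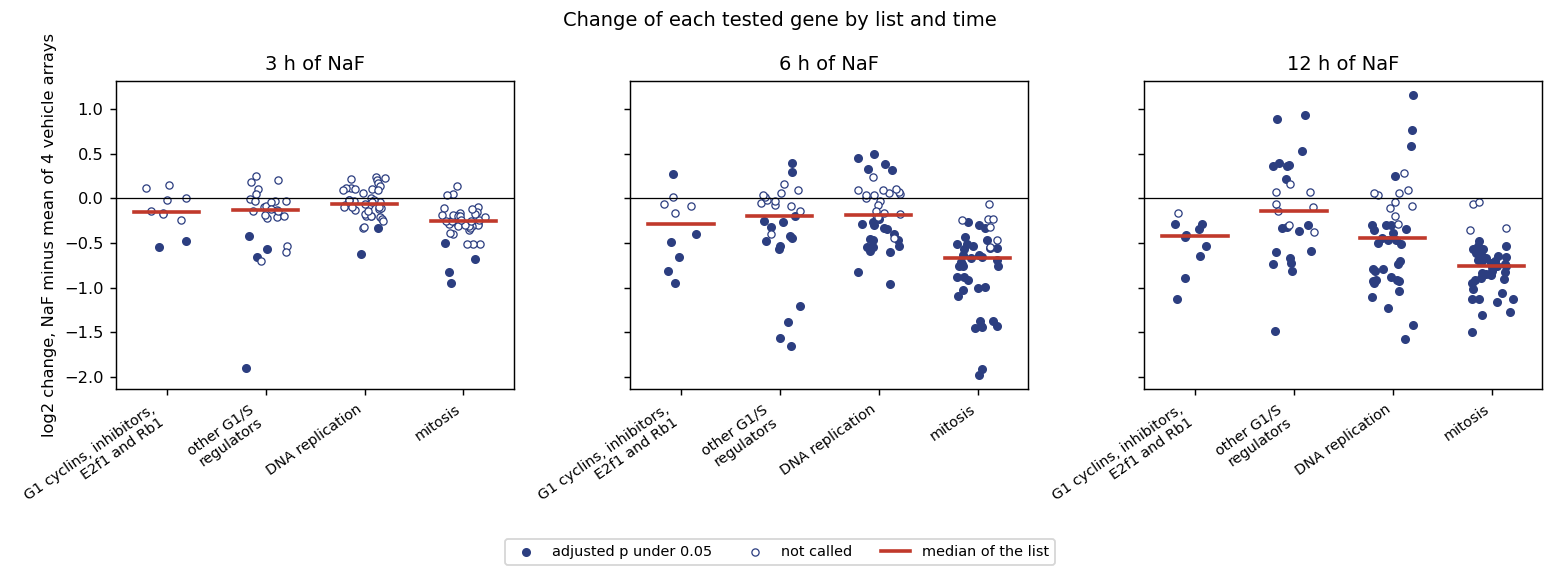
Log2 change of every tested gene of 4 lists at 3, 6 and 12 h of NaF, 1 point per gene, filled where the adjusted p was under 0.05, with the list median as a bar. Mitosis genes lie lowest as a list at 6 h, with a median of −0.67, and Myc is the lowest point at 3 h, −1.89.

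The genes of these lists with the largest changes followed several courses. Myc, a growth-driven transcription factor gene, differed by −1.89 at 3 h, −0.03 at 6 h and 0.89 at 12 h, called at 3 and 12 h in opposite directions. Ccna2, the S and G2 phase cyclin, differed by −0.66, −1.65 and −0.74, called at all 3 times, with its lowest level at 6 h, as for Ccne2. E2f8, a repressor of the E2F family, differed by −0.53, −1.56 and −1.49, called at 6 and 12 h. In the mitosis list, Espl1, the separase gene, differed by −0.83, −1.98 and −1.30, Plk1, a mitotic kinase gene, by −0.68, −1.91 and −0.85, Incenp by −0.50, −1.45 and −0.56, and Spc25, a kinetochore gene, by −0.20, −0.69 and −1.49. Espl1, Plk1 and Incenp were called at all 3 times and Spc25 at 6 and 12 h. Incenp was bright enough to be tested (at least 7.14) only through vehicle 6 h and 12 h, at 7.19 and 7.26. Such a filter favours a lower call. The named replication genes were called at 6 and 12 h and lay farthest from vehicle at 12 h. Gins1 differed by −0.12, −0.45 and −1.57, Pole2 by −0.10, −0.59 and −1.41, and Rpa3 by −0.23, −0.60 and −1.23, while Orc2, an origin recognition gene, differed by 0.20, 0.38 and 1.16. Cdk2, the kinase of cyclin E, was named after its values were seen and differed by −0.13, −0.27 and −0.72, called at 6 and 12 h. Cdk6, E2f2, E2f3 and Skp2 were among the regulators too dim to be tested.

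For each called gene, the tested genes with the most similar levels over the 7 arrays are given as a description, since these correlations were the highest among all tested genes over 7 arrays. Ccnd1 was nearest to Ppp2r5d and Tbc1d2b (Pearson r 0.997 for both), Ccnd2 to Rtn4 (0.993) and Mtmr9 (0.992), and Ccnd3 to Gabarap (0.998) and Hddc3 (0.997). Ccne1 was nearest to Manbal (0.994) and Dtx3l (0.993), and Ccne2 to Mrpl41 (0.996) and Cdadc1 (0.994). None of these is one of the 10 genes. Cdkn1b was nearest to Crlf3 (0.985) and Maf (0.984), Cdkn2c to Faim (0.995) and Frg1 (0.991), E2f1 to Carmil1 (0.996) and Tcf4 (0.995), and Rb1 to Ctsa (0.991) and Blvrb (0.990). Dtx3l, the gene nearest to Ccne1 with a larger change, went from 8.37 at NaF 3 h to 7.64 at NaF 12 h, against 8.83 to 8.97 with vehicle.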

How the data were processed

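Total RNA of rat ROE2 cells (7 groups, each a pool of 3 experiments) was hybridized to 7 Affymetrix rat genome arrays. The deposited values are log2 signals that the authors made with GeneSpring GX, with no version, summarization or normalization stated in what was read for this work. Groups came from the sample labels. Probe sets were named from the platform annotation (20832 with 1 symbol, 436 with several, 9831 unnamed), and 14168 of 14218 gene identifiers matched RefSeq GRCr8.

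As many probe sets as the study's methods count as expressed were tested, ranked by the highest array, which left those with a highest signal of at least 7.14. limma 3.58.1 in R 4.3.3 was fitted to all 7 arrays (3 residual degrees of freedom), with adjusted p by Benjamini-Hochberg. The procedure was tested on simulated data beforehand. The simulated NaF arrays were made to vary like the vehicle arrays, so that assumption was not checked. The number of arrays limits the precision: the median SE of a change was 0.09 and the median SD over the vehicle arrays 0.08.

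The genes, lists and tests were chosen with earlier results of these data known. Named were the 10 G1 genes, 4 genes with the largest change at any time from each of 3 lists (other G1/S regulators, DNA replication, mitosis), the 2 genes nearest to each called gene, and Gapdh. Alternatives were each array left out, no signal filter, a filter on the mean, equal medians, quantile normalization, a variance trend, averaged probe sets of each gene, time as a block, the same-time vehicle as baseline, 2-fold and 2.5-fold thresholds, and the methods' t-test.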

Additional observations from a re-analysis of the deposited data

Results flagged for a closer look

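Over the 4 vehicle arrays, which are of different times, the vehicle control stood apart as the lowest for Ccnd3 (9.68, its gap to the next array being 0.846 of the range) and for Rb1 (7.28, 0.855 of the range). Chance marks about 1 in 20 groups in this way. The share of the 10 genes called from 6 to 12 h of NaF was near that of all tested genes. The change from 6 to 12 h of NaF was itself past the threshold in the limma fit for Ccnd1 (−0.72, adjusted p 0.0058), Ccne2 (0.54, adjusted p 0.012), E2f1 (−0.66, adjusted p 0.0053) and Rb1 (−0.57, adjusted p 0.0083), each over 1 array against 1 array.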

How the results depend on the processing

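With 1 array of pooled RNA per NaF time, the precision of a result is set by the 4 vehicle arrays, and dim probe sets were not tested. A value counted as kept under an alternative when its direction and its side of the threshold stayed the same. The same-time vehicle as baseline has no test. There a value was kept when it lay within the vehicle SD of the limma change, and otherwise had moved. Of 330 values of the 10 genes under alternatives, 295 were kept, 23 lost a call, 3 gained one, 5 moved and 4 reversed. The cause was not tested. Without the signal filter, more probe sets enter the adjustment: the count of called G1 genes became 0 for 2 at 3 h, 3 for 6 at 6 h, 6 for 9 at 12 h, 3 for 4 between 6 and 12 h, and 1 for 2 over the 3 NaF times. Leaving out single arrays gave 0 to 2 at 3 h, 5 to 7 at 6 h, 6 to 9 at 12 h (6 without vehicle 6 h), 4 to 6 between 6 and 12 h, and 0 to 5 over the 3 NaF times. Between 3 and 6 h the variance trend gave 1 for 0, and between 6 and 12 h it gave 6 and quantile normalization 7, for 4. Over the 3 NaF times, time as a block and the methods' t-test after adjustment each gave 0. That t-test had 6 of the 10 genes at an unadjusted p under 0.05 and 2115 genes in all, of which 28 passed after Benjamini-Hochberg adjustment.

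Reversed values were all near 0. Leaving out 1 vehicle array moved the 3 h change of Ccnd1 between −0.049 and 0.00803 (above 0 without vehicle 3 h or 6 h), that of Ccnd2 between −0.00807 and 0.034 (below 0 without vehicle 3 h or 12 h), that of Cdkn2a between −0.0204 and 0.00303 (above 0 without vehicle 12 h), and the 6 h change of Myc between −0.072 and 0.0400 (above 0 without vehicle 3 h). At 3 h, Gapdh differed by −0.012 with its probe sets averaged, and Cdkn2a by 0.00771 with equal medians and 0.0196 with quantile normalization.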

Other observations

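At 12 h, when 30.0% of all tested genes were called higher, so were the genes of the CDK-activating kinase, which phosphorylates CDK4 and CDK2. They were picked after their values were seen. Ccnh and Mnat1 were already called higher at 6 h, as were 17.0% of all tested genes. Cdk7, its catalytic subunit, differed by −0.22, −0.15 and 0.53 at 3, 6 and 12 h (limma adjusted p 0.079, 0.094 and 0.00082), its cyclin Ccnh by 0.11, 0.40 and 0.39 (0.43, 0.01 and 0.0061) and the assembly factor Mnat1 by 0.21, 0.30 and 0.37 (0.17, 0.028 and 0.0081).

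Among partners of E2F1 and relatives of RB1, also picked after their values were seen, Tfdp1, the DNA-binding partner of E2F factors, differed by −0.03, −0.44 and −0.60, so that it was lower at 6 h (adjusted p 0.0031), when E2f1 was not called. Rbl1, the gene of the pocket protein p107, differed by −0.14, −0.53 and −0.82, with a call at 6 h (adjusted p 0.0053), when Rb1 was called higher. E2f4, a mainly repressive E2F gene, differed by −0.21, −0.56 and 0.22, with calls in opposite directions at 6 h (adjusted p 0.0035) and 12 h (adjusted p 0.045).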
